A study of Mus musculus with 6 samples.

Results

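The interferon gamma module described here consisted of 31 mouse genes out of the 32285 genes listed for each library. They were 15 GTPases (Gbp2 to Gbp9, Igtp, Irgm1, Irgm2, Iigp1, Tgtp1, Tgtp2 and Ifi47), 3 transcriptional regulators (Irf1, Irf8 and Nlrc5), both chains of the interferon gamma receptor (Ifngr1 and Ifngr2) and 11 genes of the class I antigen route. The class I genes were H2-K1, H2-D1 and B2m, which form the peptide-presenting complex, and Tap1, Tap2, Tapbp, Psmb8, Psmb9, Psmb10, Psme1 and Psme2, which make, move and load the peptides. The genes were chosen by name, and all 31 symbols were found in each of the 6 gene lists. The study measured droplet-based single-cell RNA in bone marrow, spleen and tumor of Cysltr1-deficient (KO) mice and BALB/c WT mice, all of which carried EMT6 tumors, a transplantable mouse mammary carcinoma line. Marrow was enriched for haematopoietic progenitors, and spleen and tumor were enriched for CD45+ cells, with magnetic kits in both genotypes. The 6 groups were tumor KO, tumor WT, spleen KO, spleen WT, marrow KO and marrow WT, each 1 library made from 3 pooled mice, so differences have no replicate check and no p-value is given. The age and sex of the mice, the strain of the KO mice and the deleted part of Cysltr1 are not given in the sources used here.

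Interferon gamma is made mainly by T and natural killer cells, binds a receptor of Ifngr1 and Ifngr2 chains and acts through the kinases Jak1 and Jak2. Responding genes often carry short palindromic gamma-activated sites, and the product of one early responder, Irf1, binds interferon-stimulated response elements in a further set of genes. Among these genes are the guanylate-binding proteins and immunity-related GTPases, which coat and disrupt the vacuoles of intracellular pathogens, and the genes that supply peptides to class I molecules for display to CD8 T cells. Type I interferon acts on many of the same genes.

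Cells were assigned to classes by marker genes. A cell entered a class when it held UMIs (unique molecular identifiers, each standing for 1 captured RNA molecule) of at least 3 markers of that class, or 4 for immature neutrophils, with a lead of at least 2 markers over unrelated classes. Mature and immature neutrophils, and monocytes and macrophages, were parted by their own markers. The filters kept 5949 KO and 7840 WT tumor cells, 7692 KO and 8289 WT spleen cells and 6054 KO and 4996 WT marrow cells, with median UMIs per cell between 2578 and 12772. A gated class is a range rather than a sharp type: 68.8% of KO and 70.7% of WT carcinoma cells lay exactly at the marker minimum, as did 45.2% and 51.7% of tumor monocytes, 29.5% and 27.3% of tumor neutrophils, and 3.02% and 2.64% of spleen neutrophils. No class was given to 54.0% of KO and 58.7% of WT tumor cells. In the carcinoma cells Krt8, a keratin of simple epithelia, stood at 1024 and 1016 CPM in KO and WT. Krt8 is itself a marker of that gate, so its level does not check the label. Ptprc, which encodes CD45 and took no part in the gate, stood at 2.53 and 3.14 CPM. Fibroblasts and endothelial cells had no gate of their own, so carcinoma cells were not set against them. Pairs of libraries shared 46 to 128 cell barcodes.

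The targeted gene did not follow the labels. Cysltr1, which encodes a receptor for cysteinyl leukotrienes, stood at 24.7 CPM in the marrow library labelled KO and 4.78 CPM in the one labelled WT, a ratio of 5.16 (4.56 to 5.85). Ranges in brackets after a level or ratio are exact 95% intervals that cover counting error only. In spleen it stood at 33.4 CPM in the library labelled KO and 6.73 CPM in the one labelled WT, a ratio of 4.96 (4.31 to 5.71), and in tumor at 7.50 and 9.82 CPM, a ratio of 0.763 (0.669 to 0.870). With each cell drawn down to 1000 UMIs, marrow gave a ratio of 7.69, spleen one of 9.54 and tumor one of 0.961. Because the deleted part is not known here, counts of this gene may check nothing. KO and WT below therefore mean the library labelled so, and every direction given between them rests on those labels.

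Several members could not be counted apart from close copies. Of all 31-base words in the transcripts of Tgtp2, Tgtp1 and Gbp6, 90.5%, 84.4% and 74.2% also occurred in another gene, and the shares were 33.5% for Psme2, 31.1% for Gbp8, 26.7% for H2-D1 and 22.8% for H2-K1. Tap1 and Psmb9 overlap on opposite strands, Gbp4, Gbp8 and Gbp9 overlap on the same strand, and so do Igtp and Irgm2. Values of these genes are uncertain to that extent. The reads were mapped to mm10, the C57BL/6 reference, whereas BALB/c mice carry other H2 alleles, and the share of H2-K1 and H2-D1 reads lost by this was not tested.

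The members lay in a few clusters of the genome. Of the 31, 7 lay on chromosome 11, 7 on 17, 4 on 3 and 4 on 5. On chromosome 3 of mm10 (GENCODE annotation of GRCm38), Gbp5 (142493978 to 142522344), Gbp7 (142530342 to 142550149), Gbp3 (142560026 to 142573209) and Gbp2 (142620602 to 142638008) followed each other on the forward strand. Tap1 (34187553 to 34197225) and Psmb9 (34181987 to 34187764) overlapped at their ends on chromosome 17. Igtp (58199556 to 58207591) and Irgm2 (58199618 to 58222782) overlapped on chromosome 11.

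The promoters of the GTPases are shown because their letters separated them from the antigen processing genes. RefSeq promoter windows (GRCm38.p6) were found for 24 members, and the 250 bases before the start were searched on both strands. The letters GAAA in 2 copies with any 2 bases between them, the core of an interferon-stimulated response element, stood in 9 of the 10 GTPases with a window, and in 1 of 10 class I genes (B2m). They stood in neither of the 2 regulators with a window nor in the 2 receptor chains. Over all promoters they stood in 3.46% of 27025 genes, or 2.98% of 32851 windows. The letters TTCNNNGAA of a gamma-activated site stood in 6 of the 10 GTPases, in both regulators, in 1 of 10 class I genes (Psmb8) and in neither receptor chain. Among all genes with a window 8.13% held these letters, or 7.02% of windows. Both motifs can lie side by side, and a match is a description of letters, not a measured site. The stretches below run 5′ to 3′ on the strand of the gene, and capitals mark the 2 GAAA copies with their gap, or the reverse complement, except in Irf1, where they mark TTCNNNGAA.
Gbp2, chr3:142620584-142620623 (+): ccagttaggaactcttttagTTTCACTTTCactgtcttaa
Gbp3, chr3:142559979-142560024 (+): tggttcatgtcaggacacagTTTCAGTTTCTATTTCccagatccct
Gbp5, chr3:142496749-142496788 (+): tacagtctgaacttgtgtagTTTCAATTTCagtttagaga
Gbp7, chr3:142530263-142530302 (+): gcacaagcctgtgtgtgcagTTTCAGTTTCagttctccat
Igtp, chr11:58199502-58199541 (+): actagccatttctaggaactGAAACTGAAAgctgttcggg
Irgm2, chr11:58214893-58214932 (+): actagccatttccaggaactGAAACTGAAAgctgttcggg
Tgtp1, chr11:48992304-48992343 (-): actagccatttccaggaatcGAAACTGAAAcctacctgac
Tgtp2, chr11:49064263-49064302 (-): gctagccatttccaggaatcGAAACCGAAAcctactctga
Irgm1, chr11:48871425-48871470 (-): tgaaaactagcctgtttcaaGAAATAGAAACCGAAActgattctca
Irf1, chr11:53769904-53769942 (+): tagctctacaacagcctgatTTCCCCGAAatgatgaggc
The 4 guanylate-binding protein genes carried the element in the reverse orientation, and the 5 immunity-related GTPases shown carried it forward. Igtp, Irgm2, Tgtp1 and Tgtp2 also held a match to TTCNNNGAA just before it. Gbp3 and Irgm1 held 2 overlapping matches each.

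Summed over the 15 genes, the GTPases were most abundant in tumor neutrophils, at 2681 CPM (counting interval 2606 to 2758) in the KO library and 1264 CPM (1209 to 1321) in the WT library. In the KO libraries tumor T cells followed with 1958 CPM (1839 to 2083), then tumor monocytes with 1234 CPM (1167 to 1304) and spleen neutrophils with 1124 CPM (1088 to 1161). Spleen monocytes, spleen macrophages and carcinoma cells came next, at 1014, 1002 and 972 CPM, and their counting intervals overlapped. In the WT libraries tumor monocytes (947 CPM), tumor T cells (815 CPM) and spleen T cells (790.0 CPM) followed tumor neutrophils, and the intervals of the neighbours overlapped. At the low end stood immature neutrophils, with 43.7 and 34.4 CPM in KO and WT marrow and 40.3 and 42.4 CPM in KO and WT spleen. Marrow neutrophils held 137 CPM in KO and 91.3 CPM in WT.

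The class I part varied less between classes than the GTPases. Its 11 genes summed to 9917 CPM in KO and 8198 CPM in WT tumor neutrophils, 14911 and 12748 CPM in tumor T cells, and 2863 and 2309 CPM in marrow immature neutrophils. Set against the GTPases, the 8 genes of peptide supply (transport, loading and proteasome) separated the classes. Spleen dendritic cells carried 16.4 times as many UMIs of these 8 genes as of the GTPases in KO and 20.4 times in WT, and marrow monocytes 14.5 and 19.8 times. Spleen T cells carried 2.78 and 2.93 times as many, and spleen B cells 5.55 and 6.98 times. In tumor neutrophils the quotient was 0.713 in KO and 1.25 in WT, and in spleen neutrophils it was 0.983 and 1.99. The GTPases were thus the larger sum only in the KO libraries of these neutrophils. In KO spleen neutrophils the counting intervals of the sums overlapped, at 1124 CPM (1088 to 1161) against 1105 CPM (1069 to 1141), so the order there was not settled.

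**Figure D1:**
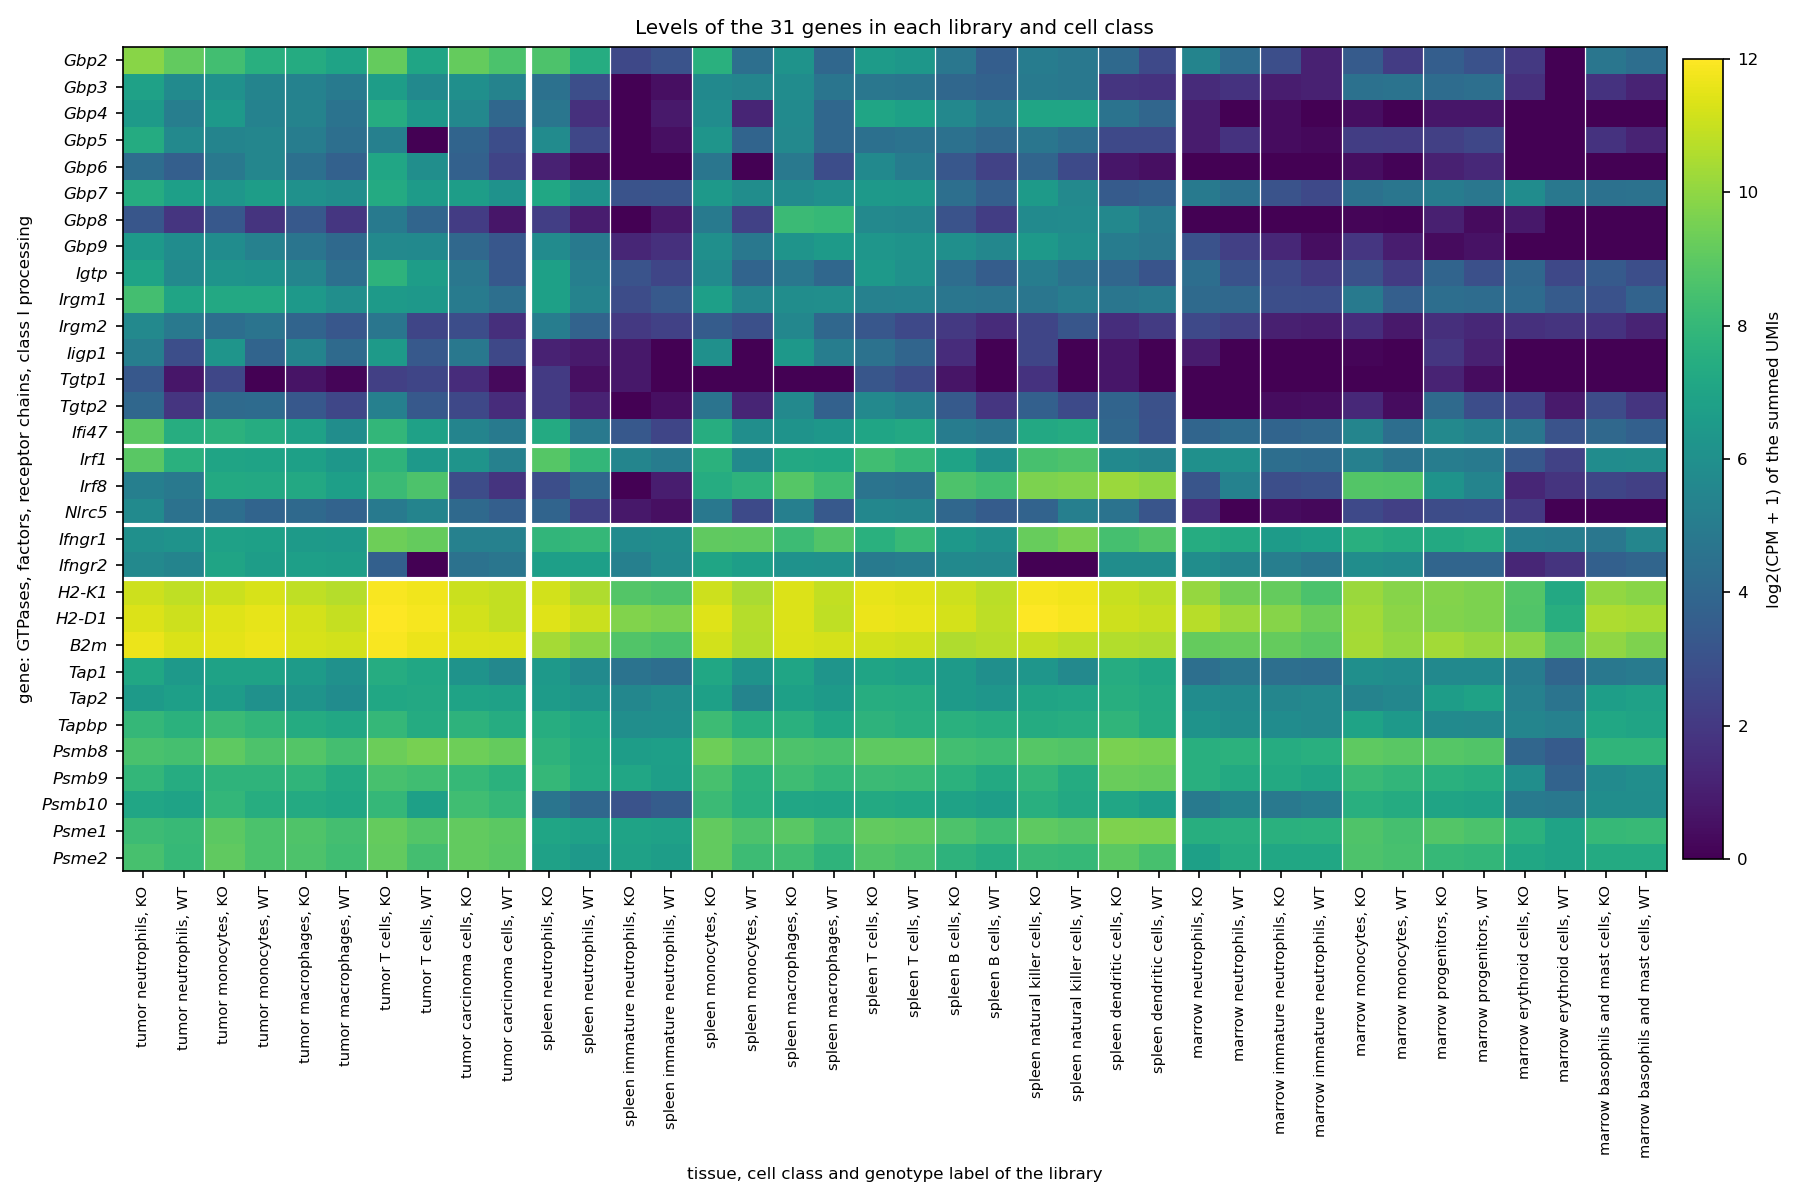
Level of each of the 31 genes as log2(CPM + 1) of the summed UMIs, in color, by gene (rows; GTPases, regulators, receptor chains and class I genes, separated by white lines) and by tissue, cell class and genotype label (columns; KO left of WT). The H2-K1, H2-D1 and B2m rows are bright in nearly every column, whereas most GTPase rows are darker in marrow columns than in tumor columns. Spleen immature neutrophils are as dark as marrow ones, at 40.3 CPM of GTPases in KO and 42.4 CPM in WT.

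**Figure D2:**
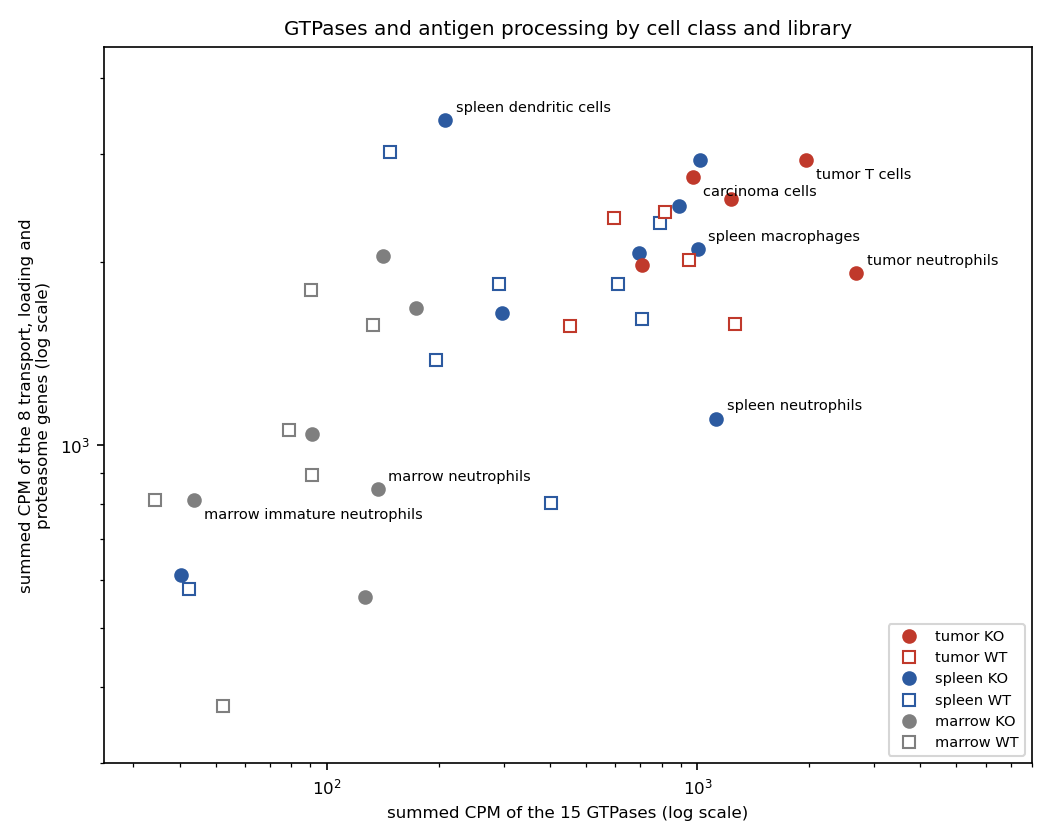
Summed CPM of the 15 GTPases (horizontal, log scale) against summed CPM of the 8 transport, loading and proteasome genes (vertical, log scale), 1 point per library and cell class (filled circles KO, open squares WT; red tumor, blue spleen, grey marrow), with names beside some KO points. KO tumor neutrophils lie farthest right, at 2681 CPM of GTPases, and KO spleen dendritic cells highest, at 208 CPM of GTPases.

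Within each genotype, tumor cells were compared with spleen cells of the same class. The KO and WT libraries are not replicates of a tissue, and each comparison shares a library with a comparison of genotypes below. The GTPase sum was higher in tumor neutrophils than in spleen neutrophils by 2.39-fold (2.28 to 2.49) in KO mice and 3.14-fold (2.97 to 3.33) in WT mice. A gene counted as measured when it had at least 100 UMIs over both libraries, and as higher or lower when it differed by at least 1.5-fold. Of the measured GTPases, 7 of 10 were higher in KO and 8 of 9 in WT, whereas 36.1% and 40.2% of all genes tested were. Most of the transcriptome thus differed between these neutrophils, and the counts of members are to be read against that.

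Ifi47, an immunity-related GTPase, stood at 505 CPM in KO tumor neutrophils against 159 CPM in KO spleen neutrophils (3.17-fold, 2.84 to 3.54). It stood at 179 CPM in WT tumor neutrophils against 27.9 CPM in WT spleen neutrophils (6.41-fold, 5.33 to 7.73). Gbp3 was 5.47-fold (4.14 to 7.29) higher in KO and 8.10-fold (5.59 to 11.9) higher in WT. Igtp, in contrast, differed by 1.12-fold (0.945 to 1.33) in KO and 1.41-fold (1.08 to 1.83) in WT. Irf1 hardly differed in KO, with 489 CPM in tumor and 461 CPM in spleen neutrophils, and in WT it was lower in tumor, with 195 CPM against 249 CPM. The GTPases and their regulator Irf1 therefore did not shift by the same factor between the tissues.

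The class I genes of neutrophils shifted unevenly between the tissues. The sum was 1.33-fold (1.30 to 1.35) higher in tumor in KO and 1.54-fold (1.51 to 1.57) in WT, with 6 of 11 genes higher in KO and 7 of 11 in WT. Psmb10, an inducible proteasome subunit, stood at 138 CPM in KO tumor against 24.4 CPM in KO spleen neutrophils, and at 123 CPM in WT tumor against 15.2 CPM in WT spleen neutrophils. B2m was 2.45-fold (2.36 to 2.55) higher in KO and 2.72-fold (2.61 to 2.83) in WT. The heavy chain gene H2-K1 differed by 0.938-fold (0.902 to 0.975) in KO and 1.25-fold (1.20 to 1.30) in WT. Psmb9 differed by 0.979-fold (0.870 to 1.10) in KO and 1.06-fold (0.922 to 1.21) in WT. The light chain and Psmb10 thus stood higher in tumor neutrophils of both genotypes, while H2-K1, H2-D1 and Psmb9 stayed within 1.25-fold in both. The constitutive proteasome subunits Psmb5, Psmb6 and Psmb7 were also higher in KO tumor neutrophils, at 2.81-, 4.05- and 2.12-fold. In WT, Psmb6 and Psmb7 were 3.93- and 2.63-fold higher, and Psmb5 stood at 153 CPM in tumor against 51.03 CPM in spleen neutrophils. A higher level in tumor neutrophils was therefore not particular to the inducible subunit Psmb10.

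Both receptor chains were lower in tumor neutrophils. Ifngr1, the ligand-binding chain, stood at 63.9 CPM in KO tumor against 239 CPM in KO spleen neutrophils (0.268-fold, 0.218 to 0.326), and at 71.7 CPM in WT tumor against 257 CPM in WT spleen neutrophils (0.280-fold, 0.229 to 0.339). Ifngr2, the signalling chain, was 0.458-fold (0.358 to 0.579) in KO and 0.382-fold (0.291 to 0.493) in WT. Against this background, 32.9% of all genes in KO and 29.7% in WT were lower in tumor neutrophils. Markers of other cells were also present in the tumor gate: macrophage markers summed to 780.2 CPM in KO and 1170 CPM in WT tumor neutrophils, and fibroblast markers to 481 and 1057 CPM. Their part in these differences was not tested.

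The GTPase sum of monocytes was higher in tumor in both genotypes, while that of macrophages was lower. In tumor monocytes it was 1.22-fold (1.12 to 1.32) that of spleen monocytes in KO and 3.25-fold (2.79 to 3.79) in WT. In KO, 2 of 10 measured GTPases were higher and 1 was lower in tumor, against 16.1% and 27.3% of all genes, and in WT 4 of 4 were higher, against 19.5% of all genes (29.3% were lower). Gbp2 stood at 326 CPM in tumor and 194 CPM in spleen monocytes in KO, and at 187 and 20.1 CPM in WT. Ifngr1 was lower in tumor monocytes in both genotypes, at 0.217-fold (0.177 to 0.266) in KO and 0.214-fold (0.168 to 0.269) in WT. The spleen gates held 100 KO and 72 WT monocytes, and the difference between the genotypes in this shift was not tested. Tumor macrophages held 708 CPM of GTPases against 1002 CPM in spleen macrophages in KO (0.706-fold, 0.651 to 0.768), and 454 against 709 CPM in WT (0.640-fold, 0.561 to 0.734). Their class I sum was 0.874-fold (0.852 to 0.897) in KO and 0.962-fold (0.924 to 1.0) in WT. Over the processing settings the log2 ratio of this sum in WT ran from -0.15 to 0.11, so its direction was not settled.

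Tumor T cells carried more GTPase RNA than spleen T cells in the KO mice, at 2.20-fold (2.07 to 2.35), but not detectably in WT, at 1.03-fold (0.883 to 1.20), where the tumor gate held 65 cells. In KO, 10 of 15 GTPases were higher and 3 lower, against 22.4% and 29.0% of all genes, and in WT 5 of 13 were higher and 3 lower, against 22.0% and 29.7%. Irf8, best known as a factor of myeloid and B cells, was 12.4-fold (10.2 to 15) higher in KO tumor T cells, at 294 against 23.7 CPM. In WT it was 19-fold (14.6 to 24.5) higher, at 398 against 21.0 CPM. The part that RNA of myeloid or B cells had in these levels was not tested. Ifngr1 moved the opposite way from that in neutrophils, being 3.37-fold (3.01 to 3.78) higher in KO and 2.11-fold (1.75 to 2.53) higher in WT tumor T cells. Spleen T cells were mostly well inside their gate, with 3.74% of KO and 7.93% of WT cells at the marker minimum, against 24.0% and 27.7% in tumor.

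In marrow the GTPases were low. Marrow neutrophils carried 0.122-fold (0.103 to 0.143) the GTPase sum of spleen neutrophils in KO and 0.227-fold (0.187 to 0.273) in WT. All 8 measured GTPases were lower in KO and all 6 in WT, against 34.1% and 29.8% of all genes (18.2% of all genes were higher in KO). Gbp2 stood at 41.3 CPM in KO marrow against 399 CPM in KO spleen neutrophils, and at 17.9 CPM in WT marrow against 171 CPM in WT spleen neutrophils. The class I sum was 0.560-fold (0.543 to 0.578) in KO and 0.630-fold (0.610 to 0.650) in WT, so it differed less than the GTPases did. In WT, 3 of 11 class I genes were higher in marrow neutrophils and 5 lower, against 26.1% and 29.8% of all genes. The 3 were Psmb10 at 2.78-fold (1.97 to 3.88) and Psme1 and Psme2, subunits of the proteasome activator, at 1.60-fold (1.38 to 1.85) and 1.89-fold (1.61 to 2.21). In KO the interval of Psmb10 included 1, at 1.23-fold (0.795 to 1.85). The constitutive proteasome subunits Psmb5, Psmb6 and Psmb7 were also higher in marrow neutrophils in WT, at 3.33-, 3.35- and 1.71-fold. In KO they were 2.05-, 2.01- and 1.21-fold, the last with an interval that included 1. The higher level was therefore not particular to the inducible subunit.

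Marrow monocytes had 0.139-fold (0.128 to 0.152) the GTPase sum of spleen monocytes in KO and 0.311-fold (0.269 to 0.361) in WT. All 7 measured GTPases were lower in KO and all 4 in WT, against 20% and 19.6% of all genes, while 21.4% and 16.2% were higher. Irf8, which monocyte precursors need, ran the other way, at 446 CPM in KO marrow against 172 CPM in KO spleen monocytes (2.59-fold, 2.22 to 3.04), and 421 against 215 CPM in WT (1.96-fold, 1.67 to 2.30). Marrow was enriched for progenitors and spleen for CD45+ cells, so the tissue and the enrichment cannot be told apart.

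KO was then set against WT in 19 combinations of tissue and class. The GTPase sum was higher in the library labelled KO in 18 of the 19, and so was the class I sum in 18, though not in the same ones. The ratio of the GTPase sum was the larger one in all but spleen immature neutrophils, where it was 0.949, against 1.10 for the class I sum. Over all combinations there were 106 pairs of a GTPase and a class with enough UMIs, and 64 of them were at least 1.5-fold higher and 0 at least 1.5-fold lower. For the class I genes the numbers were 21 higher and 0 lower of 197 pairs. Of the 64 GTPase pairs, 37 of 48 measured were in tumor, 20 of 43 in spleen and 7 of 15 in marrow. In marrow and spleen, where Cysltr1 was higher in the libraries labelled KO, the direction of the 27 pairs rests on those labels, and exchanged labels there would give 37 pairs higher and 27 lower. The share of all genes at least 1.5-fold higher lay between 1.37% (marrow erythroid cells) and 12% (tumor T cells) in the 19 comparisons, and the share lower between 0.989% (carcinoma cells) and 13.7% (marrow neutrophils). Since 1 pair of libraries per tissue underlies all of its classes, the pairs are not independent.

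**Figure D3:**
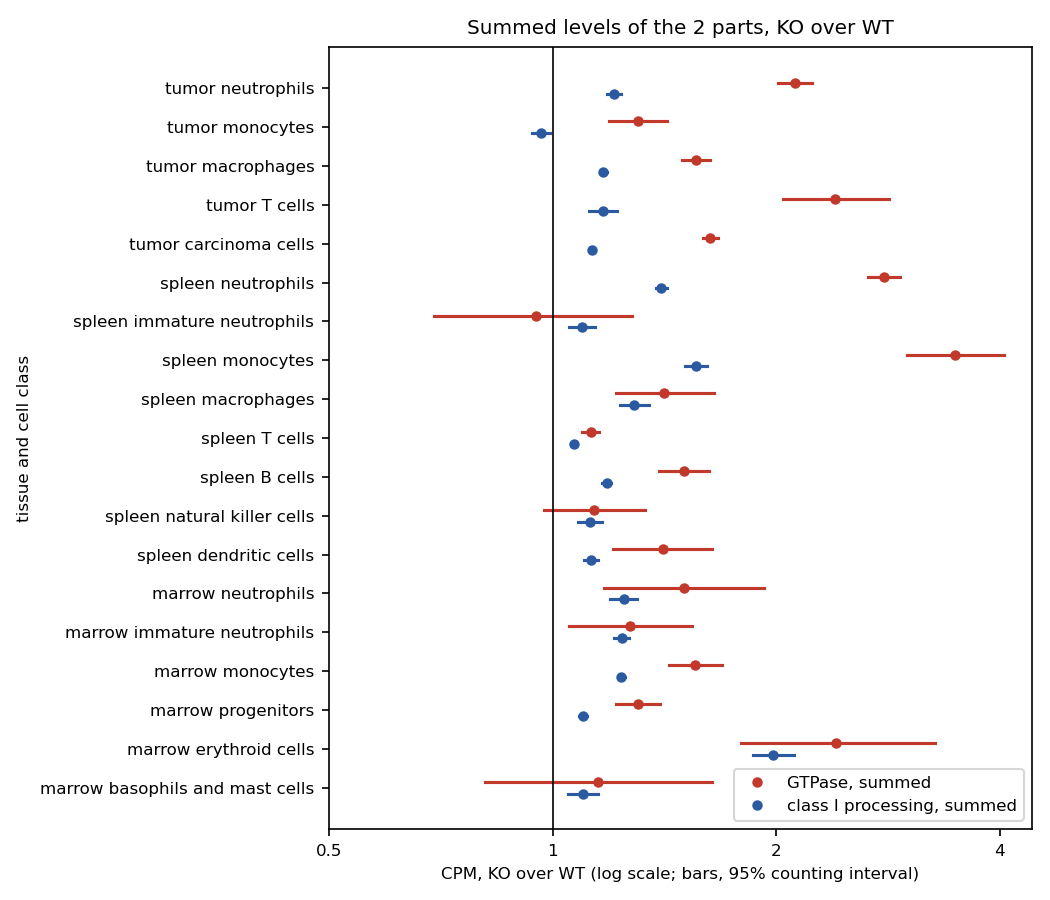
Ratio of the summed CPM in the library labelled KO to that labelled WT (log scale) for the 15 GTPases in red and the 11 class I genes in blue, by tissue and cell class, with 95% counting intervals as bars. The GTPase point lies right of the class I point in each row except spleen immature neutrophils, from 0.949 there to 3.48 in spleen monocytes.

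Spleen neutrophils showed the difference in detail. The GTPases summed to 1124 CPM in KO and 402 CPM in WT, a ratio of 2.79 (2.66 to 2.93). All 9 measured GTPases were at least 1.5-fold higher in KO, where 6.02% of all genes were (3.78% were lower), and their median log2 ratio was 1.46, against 0.06 over all genes. Of the 15 GTPases with any UMI, 14 were higher by that factor. Gbp2, the most abundant guanylate-binding protein here, stood at 399 CPM in KO and 171 CPM in WT (2.34-fold, 2.16 to 2.53). Gbp5, which promotes inflammasome assembly, stood at 55.1 CPM in KO and 4.97 CPM in WT (11.1-fold, 7.73 to 16.4). Ifi47 stood at 159 CPM in KO and 27.9 CPM in WT (5.72-fold, 4.85 to 6.76), so Gbp5 and Ifi47 exceeded Gbp2 in their ratio.

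The other immunity-related GTPases of spleen neutrophils lay between these. Igtp, known as Irgm3, stood at 112 CPM in KO and 35.3 CPM in WT (3.17-fold, 2.70 to 3.74). Irgm1, which guards the vacuole system and autophagy, stood at 113 CPM in KO and 40.3 CPM in WT (2.80-fold, 2.39 to 3.27). Irgm2, Gbp3, Gbp7 and Gbp9 were 2.58-, 3.24-, 2.05- and 1.84-fold higher in KO. Gbp4 had 83 UMIs in KO and 16 in WT, too few to be counted among the measured genes, at a ratio of 11.5 (6.65 to 21.0). The GTPases least seen, Gbp6, Iigp1 and Tgtp2, had intervals that included 1.

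The class I genes of the same neutrophils summed to 7479 CPM in KO and 5336 CPM in WT, a ratio of 1.40 (1.38 to 1.42), with 4 of 11 at least 1.5-fold higher. The 4 were Tap1, a subunit of the peptide transporter (88.0 against 52.4 CPM), the proteasome subunits Psmb10 (24.4 against 15.2 CPM) and Psmb9 (254 against 161 CPM), and the heavy chain gene H2-K1 (2291 against 1501 CPM). The other 7 lay between 1.14-fold (Psme1) and 1.41-fold (B2m). The constitutive proteasome subunits that the inducible ones replace, Psmb5, Psmb6 and Psmb7, were 1.06-, 1.01- and 1.22-fold. B cell markers summed to 63.6 CPM in KO and 337 CPM in WT spleen neutrophils, and their part in the result was not tested. In 2 large clusters of spleen neutrophils the GTPase ratio was 2.18 and 2.78, and in the cluster with 36 KO and 430 WT neutrophils it was 0.824 (0.596 to 1.12).

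Tumor neutrophils showed a similar order of the parts. The GTPases summed to 2681 CPM in KO and 1264 CPM in WT, a ratio of 2.12 (2.01 to 2.24). All 10 measured GTPases were at least 1.5-fold higher, against 4.27% of all genes (7.84% were lower), as were all 15 with any UMI, and the median log2 ratio was 1.21, against -0.12 over all genes. Gbp5 stood at 168 CPM in KO and 48.7 CPM in WT (3.45-fold, 2.68 to 4.5). Ifi47 stood at 505 CPM in KO and 179 CPM in WT (2.83-fold, 2.47 to 3.24). Gbp2 stood at 934 CPM in KO and 555 CPM in WT (1.68-fold, 1.55 to 1.83), so Gbp2 again had one of the smaller ratios. The class I sum was 1.21-fold (1.18 to 1.24) higher in KO, with Tap1 alone past 1.5-fold, at 142 against 89.7 CPM. Tap2, its partner in the transporter, stood at 93.1 CPM in KO and 108 CPM in WT (0.865-fold, 0.694 to 1.08).

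**Figure D4:**
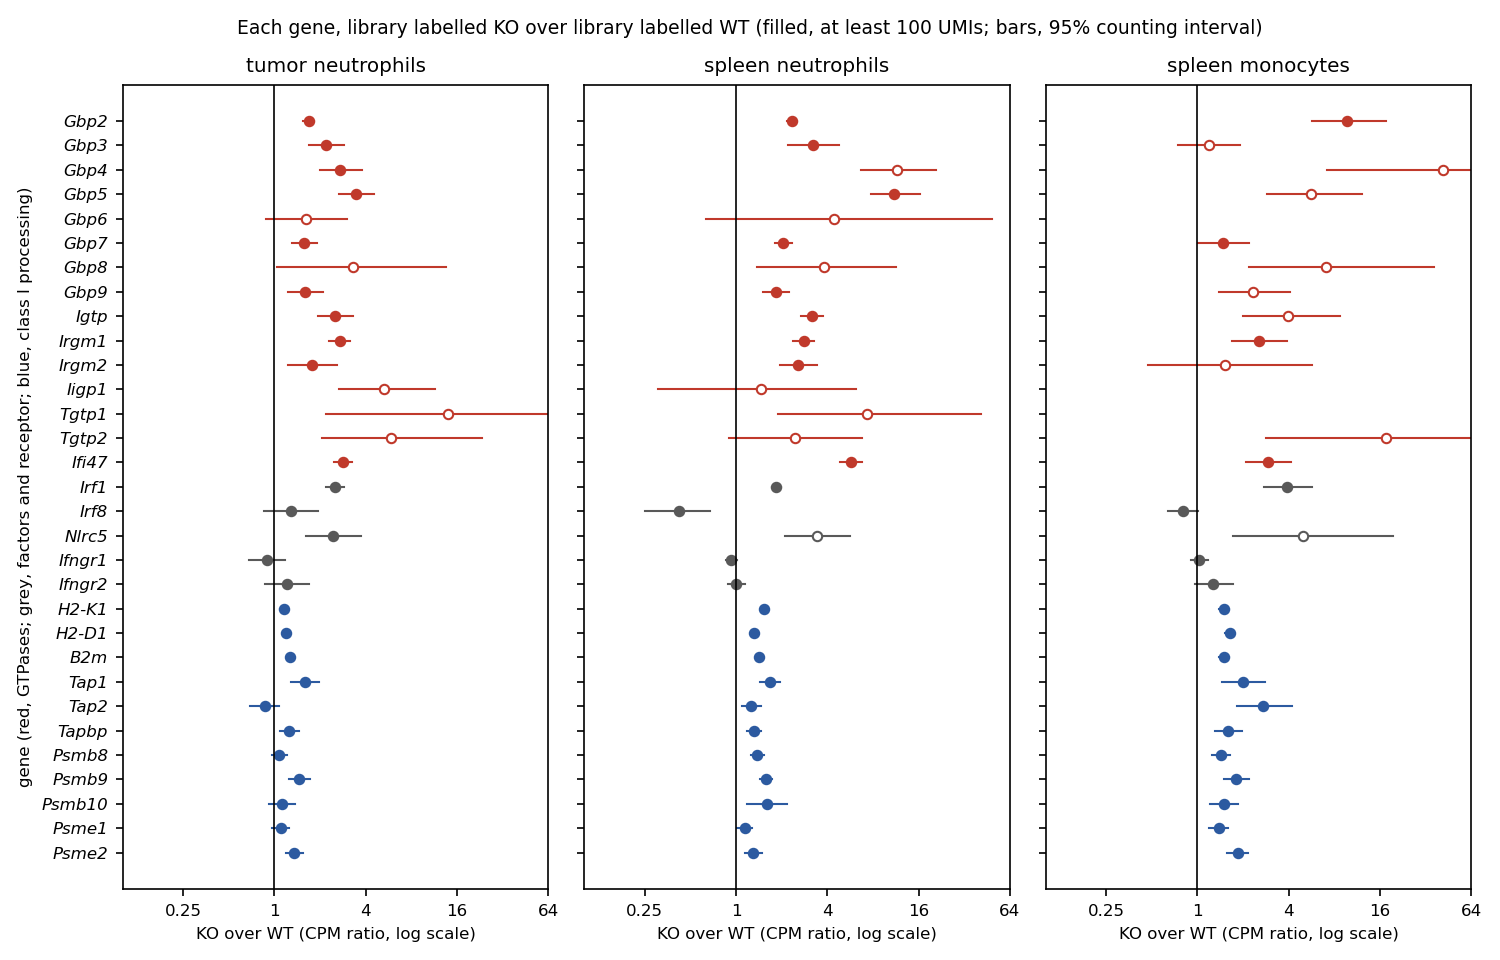
Ratio of CPM in the library labelled KO to that labelled WT for each gene in tumor neutrophils, spleen neutrophils and spleen monocytes (log scale; filled points, at least 100 UMIs over both libraries; bars, 95% counting intervals, cut off at the axis end; no point where a library had 0 UMIs). The GTPases (red) spread from 1.48 to 11.1 among the filled points, the class I genes (blue) from 0.865 to 2.72.

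Spleen monocytes had the largest ratio of the GTPase sum among the 19 combinations, though from few cells. The GTPases summed to 1014 CPM in KO and 291 CPM in WT (3.48-fold, 3.0 to 4.05). Of 4 measured GTPases 3 were at least 1.5-fold higher, against 9.78% of all genes (9.57% were lower), as were 12 of the 14 with any UMI. Gbp2 stood at 194 CPM in KO and 20.1 CPM in WT (9.62-fold, 5.69 to 17.5). Iigp1 had 62 UMIs in KO and 0 in WT, at least 15.7-fold higher against a floor of 3 counts, and Gbp6 had 25 and 0, at least 6.33-fold higher. The class I sum was 1.56-fold (1.51 to 1.62) higher with 6 of 11 genes past 1.5-fold, among them Tap2 at 113 against 41.6 CPM and Psme2 at 549.8 against 298 CPM. The constitutive subunits Psmb5, Psmb6 and Psmb7 lay at 0.752-, 0.778- and 0.786-fold. Psmb7 rested on 88 UMIs in KO and 85 in WT spleen monocytes. The inducible subunits were not set against them in this class.

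Tumor monocytes differed less. The GTPases summed to 1234 CPM in KO and 947 CPM in WT (1.30-fold, 1.19 to 1.43), with 3 of 7 measured genes higher, against 4.01% of all genes (4.88% were lower). The 3 were Gbp2, Gbp3 and Gbp4, at 1.74-, 1.58- and 2.18-fold, while Irgm1 and Igtp lay at 0.986- and 1.05-fold. The class I sum was 0.964-fold (0.937 to 0.992), the only ratio of that sum under 1 among the 19. It turned to a log2 ratio of 0.13, with KO higher, when 1 more monocyte marker was required, and the GTPase log2 ratio then went to 0.80, against 0.38 with the gate used. In the cluster that held 71.3% of KO and 58.6% of WT tumor monocytes the GTPase ratio was 1.22 (1.11 to 1.35) and the class I ratio 0.842 (0.813 to 0.872). In the cluster with 27.1% and 37.9% of them the ratios were 1.05 (0.836 to 1.32) and 1.14 (1.09 to 1.2), so the class I sums of the clusters lay on opposite sides of 1.

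The ligand's main source, T cells, showed small ratios in spleen. The GTPases summed to 889 CPM in KO and 790.0 CPM in WT spleen T cells (1.12-fold, 1.10 to 1.16), with 3 of 15 at least 1.5-fold higher, against 1.78% of all genes (1.77% were lower). The 3 were Gbp6 (50.8 against 31.9 CPM), Irgm2 (8.51 against 5.27 CPM) and Iigp1 (22.0 against 14.0 CPM). Ifi47 stood lower in KO, at 134 against 149 CPM (0.900-fold, 0.843 to 0.961), and Ifngr1 stood at 192 CPM in KO and 273 CPM in WT (0.704-fold, 0.669 to 0.741). No class I gene passed 1.5-fold. In the cluster with 268 KO and 126 WT spleen T cells the GTPase ratio was 0.848 (0.753 to 0.958). In the other clusters with enough of these cells it lay between 1.09 and 1.20. Ifng itself stood at 53.9 CPM in KO and 49.0 CPM in WT.

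Tumor T cells, with 154 KO and 65 WT cells, had GTPase sums of 1958 CPM in KO and 815 CPM in WT (2.40-fold, 2.04 to 2.84). All 5 measured GTPases were higher, where 12% of all genes were (4.36% were lower). Gbp2 stood at 566 CPM in KO and 131 CPM in WT (4.31-fold, 2.92 to 6.61), and Igtp at 212 and 103 CPM. Class I genes past 1.5-fold were Psmb10, Psme2 and Tapbp, at 2.25-, 1.65- and 1.55-fold, of 11. Ifng had 41 UMIs in KO and 28 in WT, or 79.7 and 131 CPM.

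Spleen B cells held few GTPase UMIs, 297 CPM in KO and 197 CPM in WT (1.5-fold, 1.39 to 1.62). Of 9 measured, Gbp2, Igtp, Gbp7 and Gbp4 were higher by 2.43-, 1.77-, 1.73- and 1.61-fold, against 6.41% of all genes (2.51% were lower). The median log2 ratio was 0.41 for the measured GTPases and 0.18 over all genes. Relative to that median of all genes, the class I sum, at 1.18-fold, hardly differed: under scaling by the median ratio its log2 ratio was 0.051, and that of the GTPases was 0.40. Neutrophil markers summed to 178 CPM in KO and 1416 CPM in WT spleen B cells, and their part in the result was not tested.

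Carcinoma cells also differed between the libraries, although the EMT6 line does not carry the genotype of its host. Host fibroblasts and endothelial cells were not set apart from this gate, so its cells need not all be EMT6 cells. The GTPases summed to 972 CPM in KO and 596 CPM in WT hosts (1.63-fold, 1.60 to 1.67). Of 13 measured GTPases 10 were at least 1.5-fold higher, against 4.11% of all genes, and the median log2 ratio was 1.05, against 0.03 over all genes. Iigp1, which loads onto parasite vacuoles, stood at 26.9 CPM in KO and 5.07 CPM in WT hosts (5.31-fold, 4.35 to 6.53). Gbp4 stood at 48.2 and 15 CPM (3.21-fold, 2.83 to 3.64), and Gbp2, the most abundant, at 576 and 385 CPM (1.5-fold, 1.45 to 1.54). The class I sum was 1.13-fold higher, with no gene past 1.5-fold and Tap1 the highest at 1.44-fold (1.33 to 1.57). The makeup of the gate differed between the libraries, and the GTPase ratio differed between its clusters. In the cluster with 33.2% of KO and 10.4% of WT carcinoma cells it was 2.65 (2.51 to 2.80), at 1404 against 529 CPM. It was 1.12 (1.07 to 1.16) in the cluster with 35.3% and 49.5% of them, 1.25 (1.19 to 1.32) in that with 16.4% and 28.2%, and 0.965 (0.895 to 1.04) in that with 7.8% and 6.48%.

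Tumor macrophages had 708 CPM of GTPases in KO and 454 CPM in WT (1.56-fold), with 9 of 13 measured genes higher, against 2.28% of all genes (4.16% were lower). Within the 3 clusters that held enough of them the GTPase ratio was 1.48 (1.40 to 1.57), 1.75 (1.26 to 2.43) and 0.972 (0.897 to 1.05), the last in a cluster with 18.3% of KO and 8.59% of WT tumor macrophages. Spleen macrophages had 1002 CPM in KO and 709 CPM in WT (1.41-fold), with 0 of 1 measured GTPase and 2 of 11 class I genes higher, against 6.21% of all genes (4.7% were lower). Gbp8, which those spleen cells carried more of than any other class, stood at 286 CPM in KO and 260.4 CPM in WT. Marrow monocytes had 141 CPM of GTPases in KO and 90.7 CPM in WT (1.56-fold, 1.43 to 1.69), with Gbp2, Irgm1 and Ifi47 higher by 2.88-, 2.52- and 2.26-fold of 5 measured, against 3.93% of all genes (2.14% were lower). Marrow neutrophils had 137 and 91.3 CPM (1.5-fold, 1.17 to 1.92), with no GTPase reaching 100 UMIs (7.74% of all genes were higher), and within 2 of their clusters the ratio was 1.10 (0.812 to 1.51) and 1.15 (0.467 to 2.78). Marrow progenitors had 174 and 133 CPM (1.30-fold), with 3 of 8 higher, against 1.42% of all genes (1.3% were lower). In the other classes GTPases passed 1.5-fold in few cases: 1 of 1 measured in marrow erythroid cells (1.37% of all genes higher, 1.31% lower), 1 of 3 in spleen dendritic cells (3.91% and 2.24%) and 0 of 2 in spleen natural killer cells (4.78% and 2.25%). No GTPase passed it in marrow immature neutrophils, with 1 measured (5.6% and 7.37%), and none reached 100 UMIs in spleen immature neutrophils (3.17% and 6.16%) or marrow basophils and mast cells (4.13% and 2.67%). In marrow erythroid cells, 107 in KO and 58 in WT, the class I sum was 1.98-fold higher with 4 of 6 genes past 1.5-fold.

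The regulators did not move as one. Irf1 was at least 1.5-fold higher in KO in 7 of the 17 combinations in which it was measured. It stood at 461 CPM in KO and 249 CPM in WT spleen neutrophils (1.85-fold, 1.72 to 1.98), at 489 and 195 CPM in tumor neutrophils (2.51-fold, 2.20 to 2.87), and at 72.9 and 37.3 CPM in carcinoma cells (1.95-fold, 1.79 to 2.13). In marrow neutrophils, where the GTPases were low, it stood at 63.2 CPM in KO and 67.1 CPM in WT (0.943-fold, 0.679 to 1.30). Irf8 was higher in 2 of 14 combinations, carcinoma cells and marrow progenitors, at 2.35- and 1.66-fold. It was lower in 1, spleen neutrophils, at 6.4 CPM in KO and 15.2 CPM in WT (0.422-fold, 0.251 to 0.677). B cell markers, given above, were also lower in KO spleen neutrophils. Their part in this Irf8 ratio was not tested. Nlrc5, the transactivator of class I genes, was measured in 6 combinations and past 1.5-fold in tumor neutrophils, at 52.7 CPM in KO and 21.8 CPM in WT (2.42-fold, 1.62 to 3.70).

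The receptor chains did not follow the GTPases. Ifngr1 was past 1.5-fold in 0 of 17 combinations in either direction, and stood at 239 CPM in KO and 257 CPM in WT spleen neutrophils (0.931-fold, 0.855 to 1.01) and 63.9 and 71.7 CPM in tumor neutrophils. Ifngr2 was lower in 1 of 14, spleen immature neutrophils. Among the class I genes, Psmb8, the third inducible proteasome subunit, was past 1.5-fold in 0 of 18 combinations, Tap1 in 4 of 15 and H2-K1 in 3 of 19. Among the GTPases, Gbp2 was higher in 8 of 11, Igtp in 7 of 9 and Gbp4 in 6 of 8.

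Other genes of the pathway were taken from a list of 22 that held the ligand, its signalling, further targets and the rest of the class I route. In spleen neutrophils 6 of 16 measured were at least 1.5-fold higher and 0 lower, where 6.02% of all genes were higher and 3.78% lower, among them Socs1, Ptpn2, Gbp2b, the chemokine gene Cxcl10 (79.2 against 12.1 CPM) and Cd274, which encodes the checkpoint ligand PD-L1 (149 against 30.9 CPM). In tumor neutrophils 5 of 16 were, against 4.27% of all genes, with Socs1, an inhibitor of the same signalling, at 160.3 CPM in KO and 51.9 CPM in WT and Cxcl10 at 604 and 221 CPM. In carcinoma cells 6 of 18 were, against 4.11% of all genes, with Cxcl10 at 39.9 CPM in KO and 15.7 CPM in WT hosts. In spleen monocytes 5 of 12 were higher and 2 lower, against 9.78% and 9.57% of all genes. There Cxcl9 had 367 UMIs in KO and 0 in WT, at least 92.9-fold higher against a floor of 3 counts, whereas Calr and Pdia3, chaperones of class I folding, were 0.550- and 0.599-fold. In spleen T cells 2 of 20 were higher, Gbp10 and Cxcl10, against 1.78% of all genes. The kinase Jak1 lay between 0.972- and 1.01-fold in spleen neutrophils, tumor neutrophils and carcinoma cells, so the signalling genes did not all differ.

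The spread over single cells was read after drawing each cell down to 1000 UMIs. In spleen neutrophils 51.2% of KO cells (48.1 to 54.2) and 30.5% of WT cells (28.6 to 32.4) held at least 1 GTPase UMI, and 16% and 4.26% held 3 or more. The variance over the mean was 5.62 in KO and 2.35 in WT, where even sampling gives 1 and uneven cells give more as the mean grows. The means were 1.47 and 0.497 UMIs per cell, and the 10% of cells richest in GTPase UMIs held 55.7% of them in KO and 58.2% in WT. These shares differed less between the libraries than the variance over the mean did. The shares without drawing down were 68.5% in KO and 53.1% in WT, at median depths of 2379.5 and 2251 UMIs, and 31 KO and 90 WT cells were too shallow and left out. Immature neutrophils of the WT spleen library had a share of 4.68%. They were deeper, at a median of 10704 UMIs, so free RNA could weigh less in their drawn UMIs. Their share therefore gives no bound on free RNA in the shallower mature neutrophils, and none for the KO library.

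In tumor neutrophils 76.4% of KO and 53.7% of WT cells held a GTPase UMI, and 42.1% and 15.6% held 3 or more, with a variance over the mean of 3.90 and 2.35. Without drawing down the shares were 82.5% and 61.7%, at median depths of 1477 and 1350.0 UMIs, and 143 KO and 176 WT cells were left out. Tumor macrophages, the class with the fewest GTPases in tumor, had shares of 43.4% and 33.1%, so a low background could not be read from that tissue either. Carcinoma cells had 49.3% and 35.5%, with a variance over the mean of 2.65 and 2.74. Tumor monocytes had 56.1% and 50.3%, with 3.03 and 1.79. Without drawing down the shares were 98.5% and 96.7% in carcinoma cells, 88.8% and 79.9% in tumor monocytes, and 87.5% and 75.8% in tumor macrophages.

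Spleen T cells differed little by this measure, at 51.2% in KO and 49.6% in WT, with a variance over the mean of 2.02 and 1.70. Spleen B cells had 22.8% and 19%, with a variance over the mean of 1.80 and 1.07, while the richest 10% of cells held 58.9% and 59.1% of the UMIs. Without drawing down the shares were 85.8% and 81.9% in T cells and 56.1% and 47.2% in B cells. Of the KO spleen monocytes 42.0% held a GTPase UMI, and of the KO tumor T cells 70.2%; their WT classes had under 100 cells and are not given. Marrow neutrophils had 14.5% and 10.6%, marrow monocytes 13% and 9.19%, and marrow immature neutrophils 4.62% and 3.14%. The order of the libraries in marrow was the reverse without drawing down, where KO cells were shallower. Those shares were 24.2% in KO and 38.9% in WT neutrophils, at median depths of 1903 and 4296 UMIs, 57.8% and 69.9% in monocytes, at 7393 and 17239 UMIs, and 19.1% and 28.6% in immature neutrophils, at 3832 and 12051 UMIs. Drawn down to 2000 UMIs, marrow neutrophils had 18.1% in KO and 19.3% in WT, so no order of the libraries can be read for them.

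**Figure D5:**
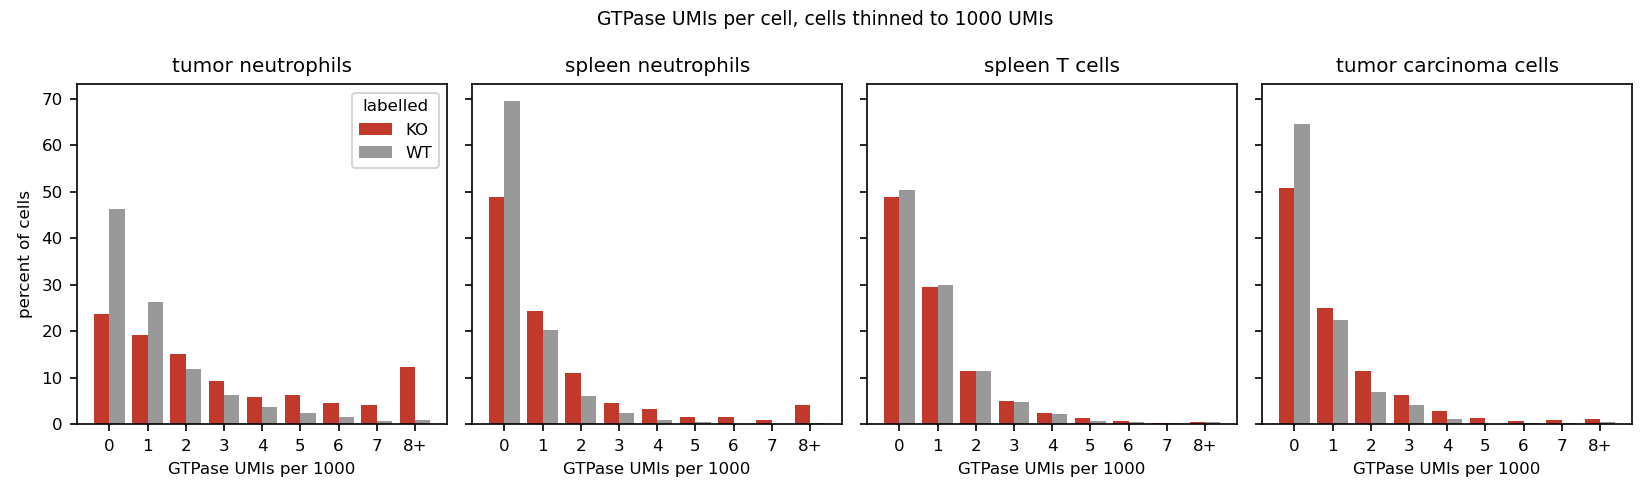
Percent of cells (vertical) with 0 to 8 or more GTPase UMIs (horizontal) after each cell was drawn down to 1000 UMIs, for tumor neutrophils, spleen neutrophils, spleen T cells and carcinoma cells, KO red and left of WT grey. The KO bars reach further right in tumor neutrophils, where 42.1% of KO and 15.6% of WT cells hold 3 or more, and the bars nearly coincide in spleen T cells.

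Cells rich in GTPase UMIs were also richer in class I UMIs in neutrophils and in several other classes. KO spleen neutrophils with 0, 1 to 2 and 3 or more GTPase UMIs held on average 6.87, 8.57 and 15 class I UMIs per 1000, and WT ones 5.86, 6.67 and 8.95. In tumor neutrophils the means were 6.91, 9.02 and 13 in KO and 6.0, 7.83 and 11.5 in WT. Tumor monocytes had 9.32, 10.7 and 14.0 in KO and 8.19, 14.3 and 15.1 in WT. From the lowest to the highest group, tumor macrophages went from 7.97 to 14.2 in KO and from 6.92 to 13.1 in WT. Carcinoma cells went from 9.31 to 12.8 and from 8.42 to 11.3, and spleen T cells from 10.8 to 13.5 and from 10.4 to 12.5. KO tumor T cells showed 16.1, 16 and 18.6, and KO spleen macrophages 9.93, 9.44 and 9.5, so the sets did not climb together in every class. These means describe the cells of 1 library each, and both counts come from the same drawn UMIs of a cell.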

How the data were processed

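The deposited matrices hold raw UMI counts per gene and cell barcode, made by the authors with Cell Ranger on mm10, per the submitters' processing notes (the notes give version 6.0.0, the file headers another one). The labels name both a 5′ and a 3′ kit, and the transcript end read is not settled here. Antibody features listed in 3 libraries were not used. Cells were kept from 300 genes and 500 UMIs upwards, up to 10% mitochondrial UMIs, and the highest Scrublet scores were removed at 0.8% per 1000 barcodes (4.96% to 8.83% of cells). Cells were gated on marker lists, and gate settings and dropped markers were settled after the data were seen. UMIs were summed per class and library and expressed as CPM. Ratios have exact conditional intervals, levels exact Poisson intervals and shares exact binomial ones, all at 95%. Where a library had 0 counts, a floor of 3 counts was used. A pseudocount of 1 CPM was used for log2 values of single genes.

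No p-value was computed, since each group is 1 library. All 31 members were named by rule. The members and lists were chosen with earlier results of these data known. Of the pathway list, 1 further gene, Gbp11, was not among the gene names and is not analysed here. Values of 1 other gene of that list are not reported here, though the counts include it. Leiden clusters (2000 variable genes without the members, 30 components, 15 neighbours, resolution 1) served as an alternative. Others were the scaling, depth, gate, doublet, mitochondrial, pseudocount and count-minimum settings. The calculation was tested on simulated data. Tools were Python 3.11.15, NumPy 2.4.6, SciPy 1.17.1, pandas 2.3.3, scanpy 1.11.5, python-igraph 0.11.9 and matplotlib 3.10.9.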

Additional observations from a re-analysis of the deposited data

Results flagged for a closer look

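Members were flagged when their KO over WT ratio in a class ran in opposite directions in different tissues, with counting intervals that did not include 1. In at least 1 tissue the ratio also had to pass 1.5-fold in either direction. With Cysltr1, which was taken over whole libraries, 4 genes are listed. Members with opposite but smaller ratios are not listed. With 1 library per group these differences between tissues were not tested. Ifngr2 in immature neutrophils was 0.660 (0.477 to 0.896) in spleen and 1.35 (1.08 to 1.69) in marrow. H2-D1 in monocytes was 0.920 (0.871 to 0.971) in tumor, 1.64 (1.53 to 1.75) in spleen and 1.36 (1.33 to 1.40) in marrow. Ifi47 in T cells was 2.09 (1.35 to 3.35) in tumor and 0.900 (0.843 to 0.961) in spleen. Cysltr1 over whole libraries was 0.763 (0.669 to 0.870) in tumor, 4.96 (4.31 to 5.71) in spleen and 5.16 (4.56 to 5.85) in marrow.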

How the results depend on the processing

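Tumor monocytes aside, where the class I sum turned to higher in KO with the stricter gate, and WT T cells aside, where tumor over spleen for the GTPases (0.045 on the log2 scale) turned to -0.018 with UMIs drawn to 1 distribution and -0.11 without doublet removal, the sums in neutrophils, monocytes, T cells, B cells and carcinoma cells kept their direction. The mitochondrial limit moved none of the sums. Values that moved beyond their counting interval are given next, and the cause was not tested. With 1 more marker required, the log2 ratio of KO over WT was 0.80 in tumor monocytes and 0.83 in carcinoma cells for the GTPases, and 0.23 in tumor neutrophils and 0.13 in tumor monocytes for the class I genes. Tumor over spleen came to 1.16 in KO neutrophils and 0.55 in KO monocytes for the GTPases, and 0.66 in WT neutrophils, 0.14 in KO monocytes and 0.40 in KO T cells for the class I genes. Marrow over spleen came to -0.72 in KO monocytes and -0.37 in WT monocytes for the class I genes. The share of cells with a GTPase UMI was 49.5% in spleen KO T cells and 11.1% in marrow KO neutrophils. With clusters named from the same markers in place of gates (chosen after the data were seen), the log2 ratio of KO over WT was 0.47 in marrow monocytes, 1.27 in spleen neutrophils, 1.5 in spleen monocytes, 0.13 in spleen T cells, 1.25 in tumor neutrophils, 0.96 in tumor T cells and 0.66 in carcinoma cells for the GTPases, and 0.28 in marrow monocytes, 0.41 in spleen neutrophils, 0.49 in spleen monocytes, 0.076 in spleen T cells, 0.26 in spleen B cells, 0.48 in tumor neutrophils and 0.16 in carcinoma cells for the class I genes. Set against spleen, tumor cells had 1.39 in KO neutrophils, 1.41 in WT neutrophils and 0.94 in KO T cells for the GTPases, and 0.30 in KO neutrophils, 0.23 in WT neutrophils and 0.50 in KO T cells for the class I genes. Set against spleen, marrow cells had -3.02 in KO monocytes and -2.0 in WT monocytes for the GTPases, and -0.98 in KO monocytes and -0.77 in WT monocytes for the class I genes. With UMIs per cell drawn to 1 distribution, the log2 ratio of KO over WT was 0.24 in marrow neutrophils and 0.59 in spleen monocytes for the class I genes. The tumor and spleen values gave 1.37 in KO neutrophils and 1.76 in WT neutrophils for the GTPases, and 0.47 in KO neutrophils, 0.66 in WT neutrophils, 0.62 in WT monocytes and 0.47 in KO T cells for the class I genes. With the mean of each cell's own CPM, the log2 ratio of KO over WT was 0.81 in marrow monocytes, 1.45 in spleen monocytes, 0.44 in spleen B cells, 1.27 in tumor neutrophils and 0.62 in carcinoma cells for the GTPases, and 0.35 in marrow monocytes, 0.52 in spleen neutrophils, 0.48 in spleen monocytes, 0.078 in spleen T cells, 0.40 in tumor neutrophils, 0.32 in tumor T cells and 0.15 in carcinoma cells for the class I genes. Between tumor and spleen it was 1.07 in KO neutrophils, 1.33 in WT neutrophils and 0.54 in KO monocytes for the GTPases, and 0.13 in KO neutrophils, 0.24 in WT neutrophils, 0.57 in WT monocytes and 0.51 in KO T cells for the class I genes. Between marrow and spleen it was -1.77 in WT neutrophils, -2.69 in KO monocytes and -2.04 in WT monocytes for the GTPases, and -0.94 in KO neutrophils, -0.80 in WT neutrophils and -0.67 in WT monocytes for the class I genes. With median-of-ratios scaling, the log2 ratio of KO over WT was 0.40 in spleen B cells and 1.21 in tumor neutrophils for the GTPases, and 0.40 in marrow neutrophils, 0.42 in spleen neutrophils, 0.051 in spleen B cells, 0.40 in tumor neutrophils and 0.15 in carcinoma cells for the class I genes. For tumor over spleen it was 1.43 in WT neutrophils, 0.46 in KO monocytes and 1.94 in WT monocytes for the GTPases, and 0.40 in WT neutrophils, 0.20 in KO monocytes, 0.96 in WT monocytes and 0.49 in KO T cells for the class I genes. For marrow over spleen it was -2.77 in KO neutrophils for the GTPases, and -0.57 in KO neutrophils and -0.58 in WT neutrophils for the class I genes. Without doublet removal, the log2 ratio of KO over WT was 2.03 in spleen monocytes and 1.2 in tumor neutrophils for the GTPases, and 0.44 in spleen neutrophils and 0.73 in spleen monocytes for the class I genes. The shift of tumor against spleen was 1.49 in WT neutrophils and 1.94 in WT monocytes for the GTPases, and 0.37 in KO neutrophils, 0.57 in WT neutrophils and 0.21 in WT T cells for the class I genes. The shift of marrow against spleen was -0.39 in WT monocytes for the class I genes. The share of cells with a GTPase UMI was 21.8% in spleen WT B cells. Drawn down to 2000 UMIs, the share of cells with a GTPase UMI was 88.5% in tumor KO T cells, 65.4% in tumor KO carcinoma cells, 58% in tumor WT carcinoma cells, 71% in tumor KO monocytes, 66.5% in tumor WT monocytes, 93.2% in tumor KO neutrophils, 73.1% in tumor WT neutrophils, 38% in spleen KO B cells, 32.7% in spleen WT B cells, 70.8% in spleen KO T cells, 70.2% in spleen WT T cells, 63.9% in spleen KO monocytes, 61.4% in spleen KO neutrophils, 47.1% in spleen WT neutrophils, 24% in marrow KO monocytes, 17.3% in marrow WT monocytes and 19.3% in marrow WT neutrophils. Drawn down to 500 UMIs, the share of cells with a GTPase UMI was 50.6% in tumor KO T cells, 32.3% in tumor KO carcinoma cells, 24.3% in tumor WT carcinoma cells, 37.8% in tumor KO monocytes, 33.9% in tumor WT monocytes, 60.6% in tumor KO neutrophils, 37.4% in tumor WT neutrophils, 13.1% in spleen KO B cells, 10.2% in spleen WT B cells, 33.3% in spleen KO T cells, 32.4% in spleen WT T cells, 30% in spleen KO monocytes, 34.5% in spleen KO neutrophils, 20.1% in spleen WT neutrophils, 6.08% in marrow KO monocytes, 4.08% in marrow WT monocytes, 8.13% in marrow KO neutrophils and 6.57% in marrow WT neutrophils. Cysltr1, after cells were drawn down to 1000 UMIs, had KO over WT ratios of 7.69 in marrow, 9.54 in spleen and 0.961 in tumor. Of the GTPase pairs 109 of 182 were at least 1.5-fold higher with a minimum of 30 UMIs and 162 of 261 with 1 UMI, where 2 and 12 were lower, against 64 of 106 with 100 UMIs. Under the other settings 57 to 70 GTPase pairs and 20 to 25 class I pairs were higher, and 1 class I pair was lower with UMIs drawn to 1 distribution. The order of KO and WT marrow neutrophils in their share of cells turned at 2000 UMIs. For neutrophils, monocytes, T cells, B cells, carcinoma cells and Cysltr1, 136 values moved and 325 did not. For the other classes, 42 values moved and 244 did not. Median-of-ratios scaling shifted all genes by -0.19 in spleen B cells, 0.12 in tumor neutrophils and 0.13 in marrow immature neutrophils on the log2 scale. No paired analysis was possible because each group is 1 library, and no replicate could be left out. Spleen monocytes and WT tumor T cells rest on 65 to 100 cells, and GTPases under 100 UMIs in a class pair are limited by depth.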
